A study of Mus musculus with 6 samples.

Results

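The genes described here are 50 genes of the G2 phase and of mitosis, among them the kinase Cdk1 with its cyclins, the Polo and Aurora kinases, the spindle checkpoint, the kinetochore, the mitotic kinesins, the cytokinesis machinery and condensin. They were taken by gene name from a table of 53465 Ensembl genes, and each name matched 1 row. The cells were a mouse blood leukaemia line named Nras(G12D)/MLL-AF9, after a mutant Nras and the MLL-AF9 fusion, and both groups carried these alleles. The OMP group had been kept for 6 days in 100 µM 4'-O-methylpyridoxine (OMP), a vitamin B6 analog also called ginkgotoxin, and the Vehicle group had received an equal volume of PBS, with 3 libraries in each group. All cells grew in medium with serum and the cytokines SCF, IL-3 and IL-6, which sustain myeloid progenitors in culture. Whether the line is 1 clone, and whether replicates were separate cultures, is not given in the labels, so the p-values here reflect only how these libraries spread, and that spread may be technical.

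A cell that has copied its DNA waits in G2 until CDK1, bound to cyclin B and freed of inhibitory phosphate by Cdc25 phosphatases, drives it into mitosis. Condensin then compacts the chromosomes, kinetochores attach them to a spindle built by kinesins and Aurora kinases, and the spindle checkpoint holds back the anaphase-promoting complex (APC/C) until every chromosome is attached. Transcripts of these genes accumulate late in the cycle, when the MuvB complex, B-Myb and Foxm1 act at their promoters, and they are low in cells that have left the cycle.

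Most of these mRNAs were lower in OMP-treated cells. Of the 50 genes 44 fell and 0 rose at an adjusted p under 0.05, where 27.5% of all 11020 genes tested fell, 15.4% rose and 43.0% passed in either direction. In bulk RNA, fewer cells in G2 or mitosis cannot be told apart from less of each mRNA per cell. The background of falling genes ran from 19.8% to 36.1% under 4 other scalings of the libraries. The test was limma on log2(RPKM + 0.5), with Benjamini-Hochberg adjustment over the 11020 genes, and every adjusted p below comes from it unless another setting is named. RPKM is a read number scaled to gene length in kilobases and to library size. No member rose at an unadjusted p under 0.05 (0 of 50), and 0 rose with limma-voom on the recovered reads. All 50 genes passed the filter on low values. The median log2 fold change was -0.56 over the members and -0.09 over all genes tested. In 45 members all OMP libraries lay below all Vehicle libraries, which held for 34.6% of all genes tested, and in no member (0) did all OMP libraries lie above, as in 19.9% of all genes. A fall of at least 1.5-fold was fitted for 23 members, against 10.7% of all genes, and of at least 2-fold for 4, against 2.49%. Over the 50 genes the Pearson correlation of Vehicle level and log2 fold change was 0.063 and Spearman's rho was 0.109, values that describe points sharing the same 6 libraries.

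**Figure D1:**
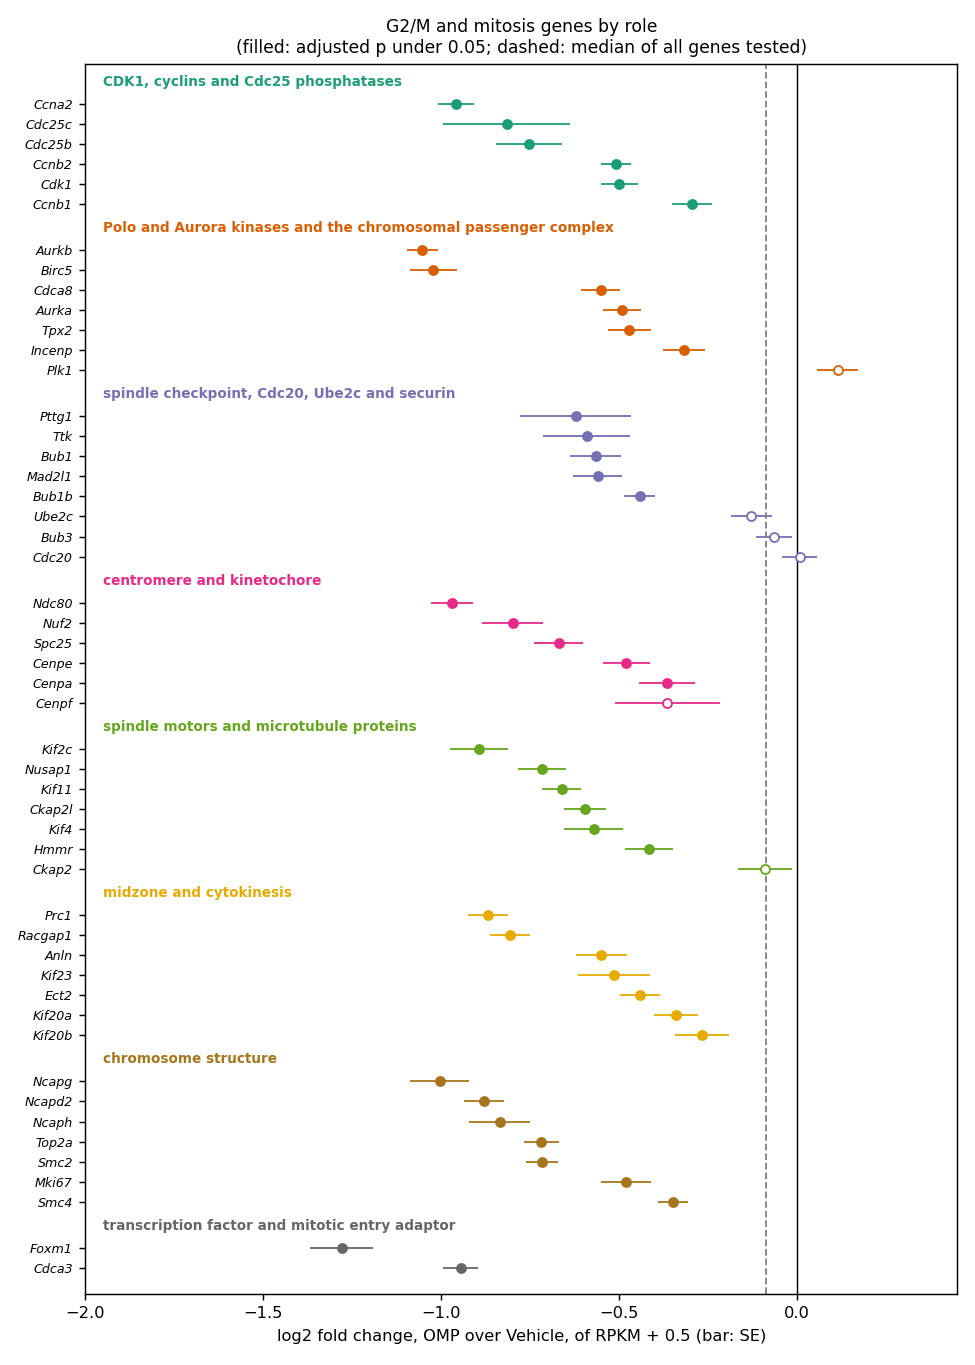
Log2 fold change of each of the 50 genes, OMP over Vehicle, on the log2(RPKM + 0.5) scale, ordered within its role. Points are the limma estimates with their SE, filled points had an adjusted p under 0.05, and the dashed line is the median of all genes tested (-0.09). The points run from Foxm1 at -1.28 to Plk1 at 0.11, and 6 are open.

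Together the 50 genes took 0.468, 0.457 and 0.470% of all reads in the OMP libraries and 0.677, 0.685 and 0.689% in the Vehicle libraries. Their summed level was 1365 ± 14.6 RPKM in OMP cells and 1987 ± 6.34 RPKM in Vehicle cells (SD, n = 3 each), or 68.7% of Vehicle. The groups did not overlap in either measure. Library totals recovered from the table were 3494986 to 3720117 reads for OMP and 3737843 to 4247619 reads for Vehicle, so every OMP total was below every Vehicle total. With reads thinned to equal totals 44 members fell.

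Other transcripts moved between the same libraries, where 15.4% of all genes tested rose and 27.5% fell. Of 14 genes of maturing neutrophils 13 rose and 0 fell. Their summed level was 12192 to 12944 RPKM in the OMP libraries and 3097 to 3203 RPKM in the Vehicle libraries. Most of that sum was S100a8, at 3033 RPKM in OMP and 1091 RPKM in Vehicle cells, and S100a9, at 5462 and 1372 RPKM. Others were low, such as Ltf, at 7.70 RPKM in OMP and 0.788 RPKM in Vehicle cells. Cxcr2, a receptor of mature neutrophils and the one that did not pass, had 1.56 RPKM in OMP and 1.59 RPKM in Vehicle cells. The part of these 14 genes in the fall of the mitotic genes was not tested. Of 14 markers of the line's myeloid progenitor identity 3 rose and 7 fell. The primary granule genes Mpo, Prtn3, Elane and Ctsg were 4.14-fold lower, 3.22-fold lower, 2.69-fold lower and 2.09-fold lower, the stem cell factor receptor gene Kit was 2.17-fold lower and the myeloid factor gene Cebpa 1.63-fold lower. The 3 that rose were Ptprc (the CD45 antigen), Itgam and Spi1. Ptprc had 139 ± 4.52 RPKM in OMP cells and 107 ± 3.17 RPKM in Vehicle cells (SD, n = 3 each). Itgam and Spi1 had log2 fold changes of 0.41 and 0.18 (adjusted p = 0.000233 and 0.00347). Hoxa9, a homeobox gene active in MLL-rearranged leukaemia, did not pass, at 62.9 ± 2.39 RPKM in OMP cells and 61.8 ± 4.20 RPKM in Vehicle cells (SD, n = 3 each). Genes listed at 0 in all 6 libraries included the T cell genes Cd3e and Cd4 and the B cell gene Pax5. The red cell gene Hbb-bs and the platelet gene Pf4 were also at 0. Of the megakaryocytic list only Gp1bb passed the filter, and it rose (adjusted p = 0.0219). It had 1.62 RPKM in OMP and 0.582 RPKM in Vehicle cells. Itga2b, Ppbp and Gp9 were higher in all OMP libraries but were not tested. The T cell gene Lck did not pass, at 3.15 RPKM in OMP and 3.14 RPKM in Vehicle cells. Trac, not tested, had 15 reads in OMP and 2 in Vehicle libraries. Summed levels of the 4 lists for erythroid, T, B and megakaryocytic cells were at most 6.15 RPKM in any library, and the megakaryocytic sum was 3.81 to 4.49 RPKM in OMP and 1.12 to 1.44 RPKM in Vehicle libraries. Of the stromal and endothelial list 3 of 7 genes were listed at 0, and its sum of 54.5 to 56.9 RPKM in OMP and 81.0 to 85.4 RPKM in Vehicle libraries was nearly all Pecam1, which myeloid cells also express.

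**Figure D2:**
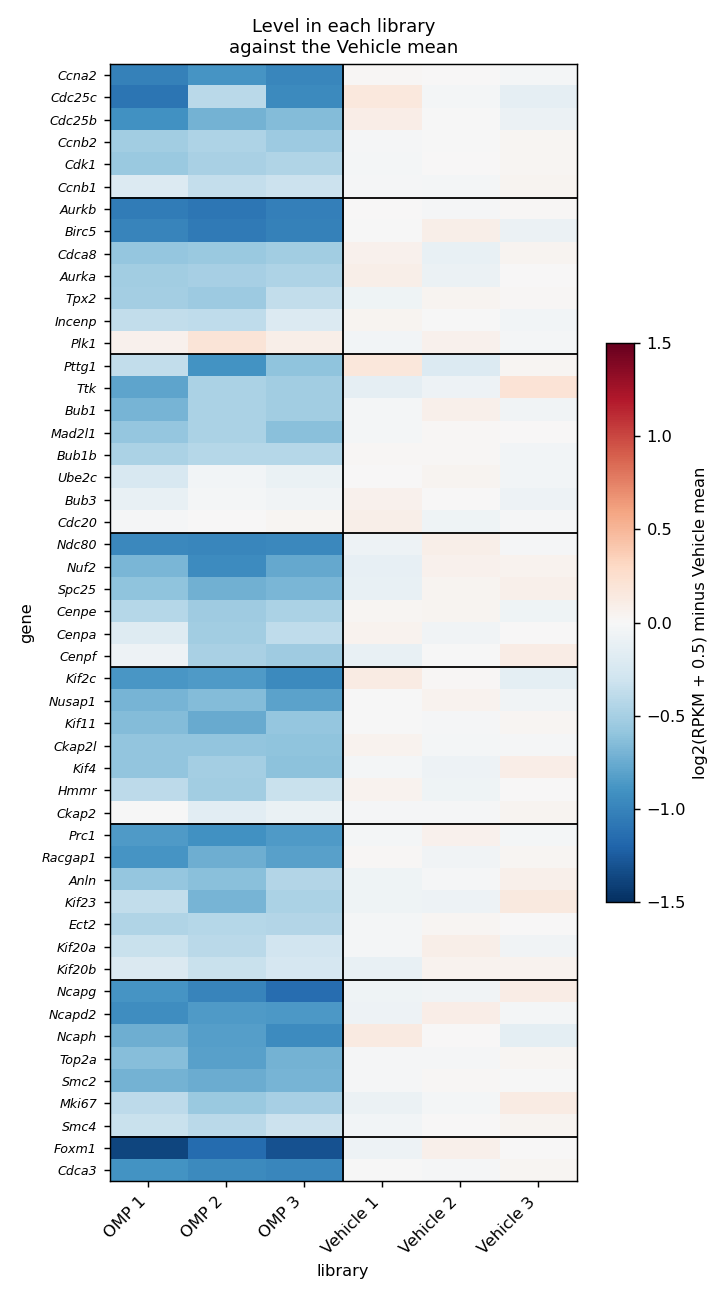
Level of each gene in each of the 6 libraries as log2(RPKM + 0.5) minus the Vehicle mean, with OMP libraries to the left and role groups separated by lines in the order of the text. The median over the genes was -0.58, -0.55 and -0.54 in the OMP libraries, with all 3 OMP columns shifted the same way.

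Promoters of mitotic genes are known for a cell cycle homology region (CHR), which MuvB binds, beside CCAAT boxes, which NF-Y binds. The sequences below are the 200 bases before the RefSeq gene start on GRCm38.p6, 5′ to 3′, with matches to TTTGAA (the CHR form searched) and CCAAT on either strand in capitals. Cdk1, Top2a, Kif11 and Ncapg are shown as genes that fell, and Cdc20 as one that did not pass and holds the same letters.
Cdk1, chr10:69352913-69353112, minus strand: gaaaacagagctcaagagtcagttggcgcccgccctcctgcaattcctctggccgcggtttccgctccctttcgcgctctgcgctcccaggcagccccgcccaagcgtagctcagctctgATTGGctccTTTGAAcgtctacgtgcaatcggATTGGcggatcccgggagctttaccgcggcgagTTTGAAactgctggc
Top2a, chr11:99024190-99024389, minus strand: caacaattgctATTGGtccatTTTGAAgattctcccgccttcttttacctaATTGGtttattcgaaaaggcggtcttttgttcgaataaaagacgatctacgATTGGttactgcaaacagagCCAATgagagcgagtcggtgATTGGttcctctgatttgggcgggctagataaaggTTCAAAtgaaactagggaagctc
Kif11, chr19:37376182-37376381, plus strand: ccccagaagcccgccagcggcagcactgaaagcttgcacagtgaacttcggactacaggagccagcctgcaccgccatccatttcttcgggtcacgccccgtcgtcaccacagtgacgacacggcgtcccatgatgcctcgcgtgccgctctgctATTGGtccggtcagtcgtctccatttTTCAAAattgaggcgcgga
Ncapg, chr5:45669725-45669924, plus strand: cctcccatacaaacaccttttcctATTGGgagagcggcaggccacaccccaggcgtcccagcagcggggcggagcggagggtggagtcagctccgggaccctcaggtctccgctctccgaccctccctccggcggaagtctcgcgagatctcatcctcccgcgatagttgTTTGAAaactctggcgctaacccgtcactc
Cdc20, chr4:118437344-118437543, minus strand: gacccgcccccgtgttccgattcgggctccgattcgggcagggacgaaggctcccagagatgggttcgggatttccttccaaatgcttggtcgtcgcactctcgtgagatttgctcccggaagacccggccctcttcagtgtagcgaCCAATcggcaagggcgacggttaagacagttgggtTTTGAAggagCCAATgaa

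The set of RefSeq promoters used here held 42 of the 50 members. Ccna2, Cdc25c, Smc4, Foxm1, Tpx2, Aurkb, Incenp and Kif20a were missing from it and are in none of the motif counts or medians. The search covered the 250 bases before the start, with any start of a gene counting. TTTGAA or its complement TTCAAA was found in 16 of the 42, or 38.1%, against 18.3% of all 27025 genes in that set. This background includes genes that did not pass the filter on low values, which all members passed. No share among the genes tested was computed. CCAAT or ATTGG was found in 32 (76.2%, against 37.5%), and both motifs in 15 (35.7%, against 7.34%). The E2F letters GGCGGGA or TCCCGCC were in 10 (23.8%, against 11.0%). Among 117 of the further mitotic genes described below, the shares were 27.4% for TTTGAA, 48.7% for CCAAT and 25.6% for the E2F letters. Members with a match to TTTGAA had a median log2 fold change of -0.55 and those without one -0.56, with ranges of -1.01 to 0.0069 and -1.02 to 0.11. Only these exact letters were searched, so other forms of the CHR were not counted. For CCAAT the medians were -0.51 with a match and -0.76 without one, and for the E2F letters -0.66 and -0.53. These splits were not tested. Of the members that did not pass, Cdc20, Ube2c, Bub3 and Ckap2 had both TTTGAA and CCAAT, while Plk1 and Cenpf had CCAAT without TTTGAA. These matches are descriptions of letters, not of binding.

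CDK1, its cyclins and the phosphatases that activate it all fell, 6 of 6, with a median log2 fold change of -0.63. Cdk1, the kinase that triggers mitotic entry, had 25.6, 27.0 and 27.7 RPKM in the OMP libraries, against 37.1, 38.3 and 38.6 RPKM in the Vehicle libraries (log2 fold change -0.50 ± 0.05 SE, adjusted p = 0.000154). Every OMP library was below every Vehicle library. The gene lies at chr10:69335146-69352938 (minus strand) in GENCODE M21 on GRCm38, the source of all positions given. Ccna2, cyclin A2, which acts from S phase into early mitosis, had 30.3, 33.2 and 31.1 RPKM in the OMP libraries, against 62.7, 62.2 and 60.3 RPKM in the Vehicle libraries, and was 1.94-fold lower (adjusted p = 4.30e-06). Of its exon bases 12.5% also lie in Exosc9 on the other strand, which had 37.1 RPKM in OMP and 36.1 RPKM in Vehicle cells. The B-type cyclins had smaller estimates. Ccnb2 had the highest level of the group, at 50.6, 52.6 and 49.5 RPKM in the OMP libraries, against 71.6, 72.2 and 74.3 RPKM in the Vehicle libraries (log2 fold change -0.51 ± 0.04 SE, adjusted p = 5.01e-05). Ccnb1, the main mitotic cyclin, had 32.5, 29.3 and 30.1 RPKM in the OMP libraries, against 37.3, 37.0 and 38.8 RPKM in the Vehicle libraries (log2 fold change -0.30 ± 0.06 SE, adjusted p = 0.00323), the smallest estimate of the 6, again with no overlap. The phosphatase genes Cdc25b and Cdc25c were 1.69-fold lower and 1.76-fold lower, and Cdc25c was the member with the largest relative SD in OMP, at 4.13, 6.96 and 4.57 RPKM. Within libraries the ratio of Ccnb1 to Ccnb2 was 0.642, 0.557 and 0.609 in the OMP libraries and 0.521, 0.513 and 0.522 in the Vehicle libraries, higher in all 3 OMP libraries.

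Of 7 genes of the Polo and Aurora kinases and the chromosomal passenger complex 6 fell and 0 rose, with a median of -0.49. Aurkb, the Aurora kinase of the passenger complex, which corrects faulty attachments, had 27.4, 26.9 and 27.8 RPKM in the OMP libraries, against 57.5, 56.7 and 58.0 RPKM in the Vehicle libraries (log2 fold change -1.05 ± 0.04 SE, adjusted p = 1.19e-06). The groups did not overlap, and the gene lies at chr11:69045647-69051664 (plus strand). Birc5, survivin, was 2.03-fold lower, Cdca8, borealin, had 57.4, 58.5 and 60.0 RPKM in the OMP libraries, against 90.5, 79.8 and 88.8 RPKM in the Vehicle libraries (log2 fold change -0.55 ± 0.05 SE, adjusted p = 0.000116), and Incenp, the scaffold of the complex, had a log2 fold change of -0.32 ± 0.06 SE. Aurka, the Aurora kinase of spindle poles, and its activator Tpx2 were 1.41-fold lower and 1.39-fold lower. Plk1, the Polo kinase that acts from centrosome maturation to cytokinesis, had 34.9, 38.3 and 35.6 RPKM in the OMP libraries, against 32.4, 35.1 and 32.9 RPKM in the Vehicle libraries (log2 fold change 0.11 ± 0.06 SE, adjusted p = 0.145, 95% interval -0.02 to 0.25). Its groups overlapped. The gene lies at chr7:122159439-122169873 (plus strand). It passed upward under median-of-ratios scaling, at 0.20 (adjusted p = 0.0232), quantile normalization, at 0.17 (adjusted p = 0.0467), and with a GC and length trend taken out, at 0.20 (adjusted p = 0.0170).

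Ratios within a library show how partners moved relative to each other. The ratio of Aurkb to Incenp was 0.719, 0.714 and 0.651 in the OMP libraries and 1.13, 1.15 and 1.21 in the Vehicle libraries, and that of Birc5 to Incenp was 0.317, 0.305 and 0.277 in the OMP libraries and 0.482, 0.529 and 0.481 in the Vehicle libraries. Neither ratio overlapped between groups, nor did that of Cdca8 to Incenp. The ratio of Aurka to Aurkb was 1.57, 1.62 and 1.61 in the OMP libraries and 1.14, 1.02 and 1.07 in the Vehicle libraries, so Aurka was the more abundant of the Aurora mRNAs per length by a wider margin in OMP cells. Such ratios are the same under any scaling that multiplies a whole library by 1 factor, but not under quantile normalization or removal of the GC and length trend, which move genes unequally. They were computed for 17 pairs of partners, chosen after the fold changes were known and with no background of other pairs, so they describe these pairs only. A two-sided exact permutation test of 3 against 3 libraries cannot go below p = 0.1, and adjusted over the pairs the smallest value was 0.155.

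**Figure D3:**
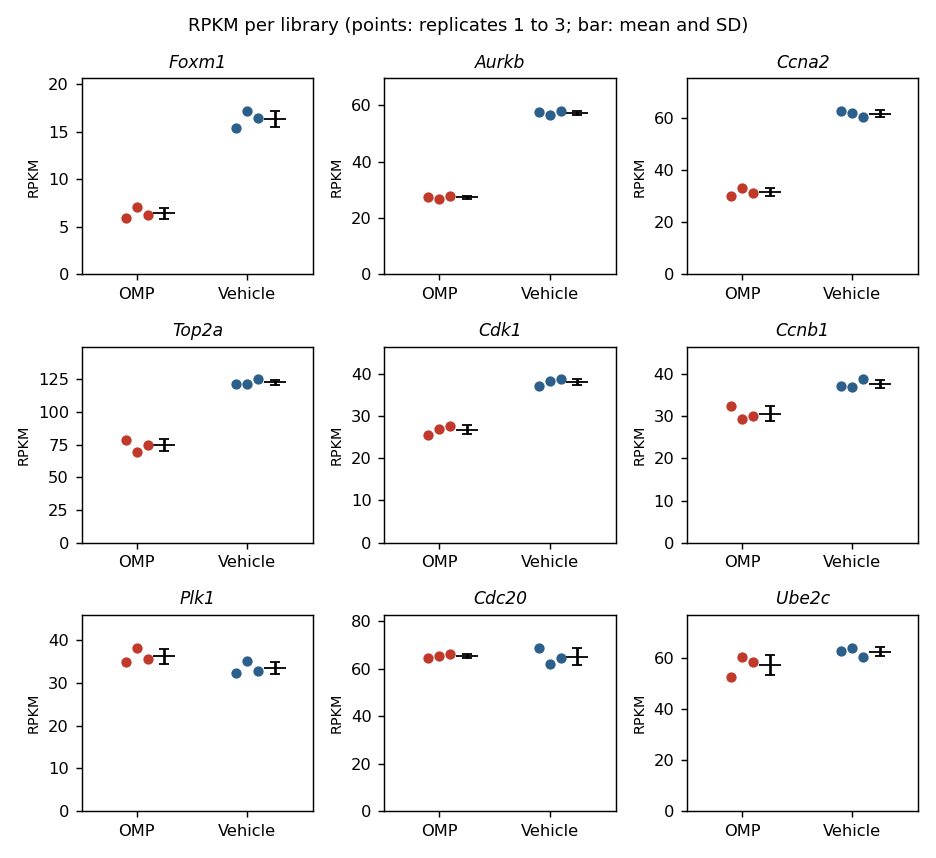
RPKM of 9 genes in each library, OMP left and Vehicle right in each panel, with the mean and SD beside the points and axes from 0. Foxm1, Aurkb, Ccna2, Top2a, Cdk1 and Ccnb1 lie lower in all OMP libraries, from 39.4% of the Vehicle mean for Foxm1 to 81.3% for Ccnb1, while Plk1, Cdc20 and Ube2c stand at 108%, 100.4% and 91.5%.

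In the checkpoint group Ttk, Bub1, Bub1b and Mad2l1 fell, while the genes that drive APC/C did not pass the threshold. Of 8 genes 5 fell and 0 rose, with a median of -0.50. Ttk, the MPS1 kinase that starts checkpoint signalling, was 1.51-fold lower. The checkpoint genes Bub1 and Bub1b were 1.48-fold lower and 1.36-fold lower, and Mad2l1, the Mad2 protein that captures Cdc20, was 1.47-fold lower. Pttg1, securin, which restrains separase until anaphase, had 6.32, 4.20 and 5.30 RPKM in the OMP libraries, against 9.43, 7.15 and 8.44 RPKM in the Vehicle libraries. That was the largest fitted fall of the group (log2 fold change -0.62 ± 0.16 SE, adjusted p = 0.0124), and it rests on 95 reads in OMP and 168 in Vehicle, the fewest of any member. Bub3, the adaptor that brings Bub1 and Bub1b to kinetochores, had 57.5, 61.2 and 59.8 RPKM in the OMP libraries, against 65.2, 62.7 and 59.0 RPKM in the Vehicle libraries (log2 fold change -0.065 ± 0.05 SE, adjusted p = 0.332), and its groups overlapped.

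Cdc20, the activator of APC/C in mitosis and the target of the checkpoint, had 64.5, 65.3 and 66.4 RPKM in the OMP libraries, against 68.9, 62.0 and 64.5 RPKM in the Vehicle libraries, and the groups overlapped (log2 fold change 0.0069 ± 0.05 SE, adjusted p = 0.924, 95% interval -0.10 to 0.12). The gene lies at chr4:118432901-118437352 (minus strand). Its sign depended on the scaling, at -0.077 after rescaling to TPM (adjusted p = 0.234). Ube2c, the E2 enzyme that starts ubiquitin chains for APC/C, had 52.8, 60.5 and 58.4 RPKM in the OMP libraries, against 62.9, 64.1 and 60.6 RPKM in the Vehicle libraries. All OMP values were lower, but the change did not pass (log2 fold change -0.13 ± 0.06 SE, adjusted p = 0.105), except after rescaling to TPM (adjusted p = 0.0127). Bub3 also passed after that rescaling, at -0.15 (adjusted p = 0.0357), and stood at 0.024 with median-of-ratios scaling. Relative to Bub3 in the same library, Bub1, Bub1b and Mad2l1 were lower in all OMP libraries, with differences in log2 ratio of -0.51, -0.38 and -0.52. On GRCm38 53 exon bases of Cdc20 also belong to Elovl1 on the other strand, which had 79.9 ± 3.42 RPKM in OMP cells and 57.1 ± 1.72 RPKM in Vehicle cells (SD, n = 3 each). No source used here gives the strand setting, so reads in those bases cannot be assigned further. Ube2c shares 592 exon bases with Tnnc2, which was listed at 0 in all libraries.

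In the kinetochore group the largest estimates belonged to the NDC80 complex, which grips microtubules. Of 6 genes 5 fell and 0 rose, with a median of -0.58. Ndc80 had 18.2, 17.9 and 18.2 RPKM in the OMP libraries, against 34.2, 38.2 and 35.5 RPKM in the Vehicle libraries (log2 fold change -0.97 ± 0.06 SE, adjusted p = 8.57e-06). Its partners Nuf2 and Spc25 were 1.74-fold lower and 1.59-fold lower, and all 3 had no overlap between groups. Cenpa, the histone H3 variant that marks centromeres, had the highest level of the group, at 61.9, 49.4 and 54.3 RPKM in the OMP libraries, against 73.4, 68.2 and 71.3 RPKM in the Vehicle libraries (log2 fold change -0.37 ± 0.08 SE, adjusted p = 0.00571). Cenpe, a kinesin that carries chromosomes to the spindle equator, was 1.39-fold lower. Cenpf, a large protein of the outer kinetochore, had 5.35, 3.92 and 3.77 RPKM in the OMP libraries, against 5.24, 5.67 and 6.16 RPKM in the Vehicle libraries. OMP replicate 1 lay inside the Vehicle range and the change did not pass (log2 fold change -0.36 ± 0.15 SE, adjusted p = 0.0761). It passed with limma-voom on recovered reads (adjusted p = 0.000537), after rescaling to TPM (adjusted p = 0.0376), with the GC and length trend removed (adjusted p = 0.0344) and without OMP replicate 1 (log2 fold change -0.51, adjusted p = 0.0177).

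Among spindle motors and microtubule proteins 6 of 7 fell and 0 rose, with a median of -0.60. Kif11, the kinesin Eg5 that pushes spindle poles apart, was the most abundant of them, at 35.8, 33.3 and 37.8 RPKM in the OMP libraries, against 56.3, 55.7 and 57.7 RPKM in the Vehicle libraries (log2 fold change -0.66 ± 0.06 SE, adjusted p = 4.78e-05). Kif2c, the microtubule-depolymerizing kinesin MCAK, had 11.2, 11.4 and 10.6 RPKM in the OMP libraries, against 23.0, 21.2 and 19.0 RPKM in the Vehicle libraries (log2 fold change -0.89 ± 0.08 SE, adjusted p = 7.89e-05). Kif4, a chromosome-bound kinesin, and Nusap1 and Hmmr, which bundle or anchor spindle microtubules, were 1.49-fold lower, 1.64-fold lower and 1.34-fold lower. Of the exon bases of Kif4 15.1% also lie in Pdzd11 on the other strand, at 22.4 RPKM in OMP and 30.9 RPKM in Vehicle cells. For Nusap1 4.24% also lie in Oip5 on the other strand, at 12.8 RPKM in OMP and 23.7 RPKM in Vehicle cells. Without the strand setting, reads in those bases cannot be assigned further. Ckap2l, a microtubule-associated protein related to Ckap2, was 1.51-fold lower with no overlap. Ckap2 itself had 10.9, 9.77 and 10.3 RPKM in the OMP libraries, against 10.8, 10.8 and 11.3 RPKM in the Vehicle libraries, with overlap, and did not pass (log2 fold change -0.090 ± 0.08 SE, adjusted p = 0.371). The Ckap2 estimate was 0.011 with quantile normalization.

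All 7 genes of the spindle midzone and of cytokinesis fell (7 of 7), with a median of -0.51. Racgap1, which with Kif23 forms centralspindlin, had 26.2, 29.3 and 27.7 RPKM in the OMP libraries, against 49.5, 47.2 and 49.9 RPKM in the Vehicle libraries (log2 fold change -0.81 ± 0.06 SE, adjusted p = 1.86e-05). Prc1, the bundler of antiparallel midzone microtubules, had 18.0, 17.1 and 17.9 RPKM in the OMP libraries, against 32.0, 34.2 and 31.9 RPKM in the Vehicle libraries (log2 fold change -0.87 ± 0.06 SE, adjusted p = 1.26e-05), the largest fall here. Kif23, Ect2, the exchange factor that activates RhoA at the equator, and Anln, the anillin scaffold of the contractile ring, were 1.43-fold lower, 1.36-fold lower and 1.46-fold lower. Kif20a and Kif20b, kinesins of the midzone, had the smallest estimates. Kif20a was 1.27-fold lower. Of its exon bases 29.3% also lie in Cdc23 on the other strand, at 19.9 RPKM in OMP and 22.9 RPKM in Vehicle cells. Kif20b had 12.5, 11.6 and 12.3 RPKM in the OMP libraries, against 13.6, 15.3 and 15.3 RPKM in the Vehicle libraries (log2 fold change -0.27 ± 0.08 SE, adjusted p = 0.0206). That call was lost with median-of-ratios scaling (adjusted p = 0.0843), with quantile normalization (adjusted p = 0.104), with the GC and length trend removed, where the estimate was -0.10 (adjusted p = 0.279), and without OMP replicate 2, Vehicle replicate 2 or Vehicle replicate 3 (adjusted p = 0.0608, 0.0733 and 0.0710).

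The chromosome structure genes had the lowest median of the role groups with more than 2 genes, -0.72, and 7 of 7 fell. Top2a, the topoisomerase that untangles sister chromatids, had 78.6, 69.6 and 74.9 RPKM in the OMP libraries, against 121, 121 and 125 RPKM in the Vehicle libraries (log2 fold change -0.72 ± 0.05 SE, adjusted p = 1.87e-05). Mki67, the Ki-67 protein that coats mitotic chromosomes and serves as a proliferation marker, had 29.0, 25.9 and 27.0 RPKM in the OMP libraries, against 36.0, 37.5 and 41.6 RPKM in the Vehicle libraries (log2 fold change -0.48 ± 0.07 SE, adjusted p = 0.000825). The non-SMC subunits of condensin I all fell. Ncapg had 19.1, 17.6 and 15.8 RPKM in the OMP libraries, against 33.9, 34.4 and 38.6 RPKM in the Vehicle libraries (log2 fold change -1.01 ± 0.08 SE, adjusted p = 4.29e-05), and Ncapd2 and Ncaph were 1.84-fold lower and 1.79-fold lower. The ratio of Ncapg to Ncapd2 and that of Ncaph to Ncapd2 overlapped between groups, with differences in log2 ratio of -0.14 and 0.035. The SMC subunits serve both condensin complexes. Smc4 was the most abundant of all 50 members, at 104, 98.9 and 105 RPKM in the OMP libraries, against 127, 132 and 134 RPKM in the Vehicle libraries, and fell 1.27-fold (log2 fold change -0.35 ± 0.04 SE, adjusted p = 0.000279). Smc2 was 1.64-fold lower. The log2 ratio of Smc2 to Smc4 was -1.81 ± 0.020 in OMP and -1.44 ± 0.036 in Vehicle libraries (SD, n = 3 each), lower in every OMP library.

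Foxm1, the forkhead factor that activates many G2 genes, had the largest fall among the 50 members. It had 5.97, 7.08 and 6.30 RPKM in the OMP libraries, against 15.4, 17.2 and 16.4 RPKM in the Vehicle libraries (log2 fold change -1.28 ± 0.09 SE, adjusted p = 1.83e-05), or 39.4% of the Vehicle mean, and 0.998% of all genes tested had an estimate as low or lower. Cdca3, also called Tome-1, an adaptor that targets the CDK1 inhibitor Wee1 for destruction, had 25.3, 24.2 and 23.8 RPKM in the OMP libraries, against 47.3, 46.9 and 48.5 RPKM in the Vehicle libraries (log2 fold change -0.95 ± 0.05 SE, adjusted p = 3.96e-06). Neither gene overlapped between groups. Foxm1 lies at chr6:128362967-128376146 (plus strand).

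Outside these members, 142 further mitotic genes in 10 lists were examined, and all passed the filter. Of them 89 fell and 8 rose, with a median log2 fold change of -0.41. The share that fell was 62.7%, against 27.5% of all genes, and 15.4% of all genes rose. With median-of-ratios scaling 82 fell and 14 rose, where 2236 of all 11020 genes fell and 2366 rose. After rescaling to TPM 98 fell and 3 rose, where 3982 of all genes fell and 1221 rose. Of the 8 risers, 3 (Zwint, Anapc13 and Pdcd6ip) kept their call with each library left out, and 5 lost it without some library. Zw10 lost it without OMP replicate 1, OMP replicate 3 or Vehicle replicate 3, and Mau2 without OMP replicate 3, Vehicle replicate 1 or Vehicle replicate 3. Ppp2r2a lost it without 4 of the libraries, all but OMP replicate 3 and Vehicle replicate 3. Anapc4 and Rcc1 lost it without 5, kept only without Vehicle replicate 2 for Anapc4 and Vehicle replicate 1 for Rcc1. After rescaling to TPM the same 5 lost it, with adjusted p = 0.271 for Ppp2r2a, 0.173 for Anapc4, 0.0782 for Mau2, 0.0882 for Zw10 and 0.195 for Rcc1. Ppp2r2a also lost it with the replicate block (adjusted p = 0.0792) and Ppp2r2a and Anapc4 with reads thinned to equal totals (adjusted p = 0.0771 and 0.0594), and Anapc4 and Rcc1 with no filter on low values (adjusted p = 0.0595 and 0.0622). The list medians below were not tested against each other.

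The constitutive centromere proteins, which build the inner kinetochore and load Cenpa, had the lowest median, -0.81, with 14 of 19 falling. Means in these lists are given with their SD over 3 libraries. Hjurp, the chaperone of Cenpa, had 31.6 ± 1.54 RPKM in OMP cells and 56.0 ± 0.835 RPKM in Vehicle cells (log2 fold change -0.82 ± 0.05 SE, adjusted p = 1.06e-05). Of the condensin II list 3 of 3 genes fell, among them its kleisin subunit Ncaph2 (log2 fold change -0.67 ± 0.05 SE, adjusted p = 4.13e-05). In the centrosome list 10 of 15 fell, and Sass6, the protein of the centriole cartwheel, had 6.50 ± 0.520 RPKM in OMP cells and 13.5 ± 0.768 RPKM in Vehicle cells (adjusted p = 6.52e-05). Of the further kinesin and spindle genes 18 of 25 fell and 1 rose. Kif15, a kinesin that works beside Kif11, was 2.14-fold lower, and Rcc1, the exchange factor of Ran on chromatin, was the one that rose (log2 fold change 0.18 ± 0.06 SE, adjusted p = 0.0306). Of the other outer kinetochore and checkpoint genes 11 of 18 fell and 2 rose. Kntc1, the ROD subunit that brings checkpoint proteins to kinetochores, was 2.31-fold lower. Zwint, which links the same proteins to Knl1, went the other way.

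Zwint had 73.3, 68.9 and 69.0 RPKM in the OMP libraries, against 45.5, 44.8 and 46.4 RPKM in the Vehicle libraries (log2 fold change 0.62 ± 0.04 SE, adjusted p = 2.22e-05), the largest rise in these lists. Zw10, another partner of Kntc1, had 40.7 ± 0.980 RPKM in OMP cells and 34.1 ± 3.37 RPKM in Vehicle cells (log2 fold change 0.25 ± 0.07 SE, adjusted p = 0.0217), and was among the 5 risers that lost the call above. The APC/C subunits stayed near the median of all genes, at -0.07, with 5 of 16 falling and 2 rising. These counts lie near the shares over all genes tested, where 27.5% fell and 15.4% rose. Anapc5 had 93.1 ± 2.73 RPKM in OMP cells and 137 ± 2.58 RPKM in Vehicle cells (log2 fold change -0.55 ± 0.04 SE, adjusted p = 1.94e-05), while Anapc13 (log2 fold change 0.34 ± 0.07 SE, adjusted p = 0.00327) and Anapc4 (log2 fold change 0.21 ± 0.07 SE, adjusted p = 0.0338) were higher. Fzr1, the Cdh1 activator that replaces Cdc20 after anaphase, had a log2 fold change of -0.015 (adjusted p = 0.878).

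In the cohesin list 11 of 16 fell and 1 rose, with a median of -0.32. Stag2, a core subunit, had the smallest p-value (log2 fold change -0.40 ± 0.04 SE, adjusted p = 0.000147), and Mau2, part of the cohesin loader, rose (log2 fold change 0.25 ± 0.07 SE, adjusted p = 0.0177). Among regulators of CDK1, 7 of 13 fell and 1 rose. Both brakes, the inhibitory kinases Wee1 and Pkmyt1, fell, with log2 fold changes of -0.61 and -0.42. Fbxo5, the APC/C inhibitor Emi1, had 13.0 ± 0.679 RPKM in OMP cells and 27.0 ± 1.47 RPKM in Vehicle cells (log2 fold change -1.03 ± 0.07 SE, adjusted p = 1.50e-05). Ppp2r2a, a regulatory subunit of the phosphatase PP2A that opposes CDK1, rose (log2 fold change 0.16 ± 0.05 SE, adjusted p = 0.0396), a call lost under the settings given above. In the MuvB list 4 of 6 fell. Mybl2, B-Myb, had a log2 fold change of -0.60, Rbbp4, a histone-binding subunit shared with other complexes, one of -0.48 (adjusted p = 7.56e-05), and Lin37, a MuvB core subunit, one of 0.11 (adjusted p = 0.498). Of the other cytokinesis genes 6 of 11 fell and 1 rose. Cit, citron kinase, was 1.95-fold lower, and Pdcd6ip, the ALIX adaptor of abscission, rose (log2 fold change 0.27 ± 0.06 SE, adjusted p = 0.00609).

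**Figure D4:**
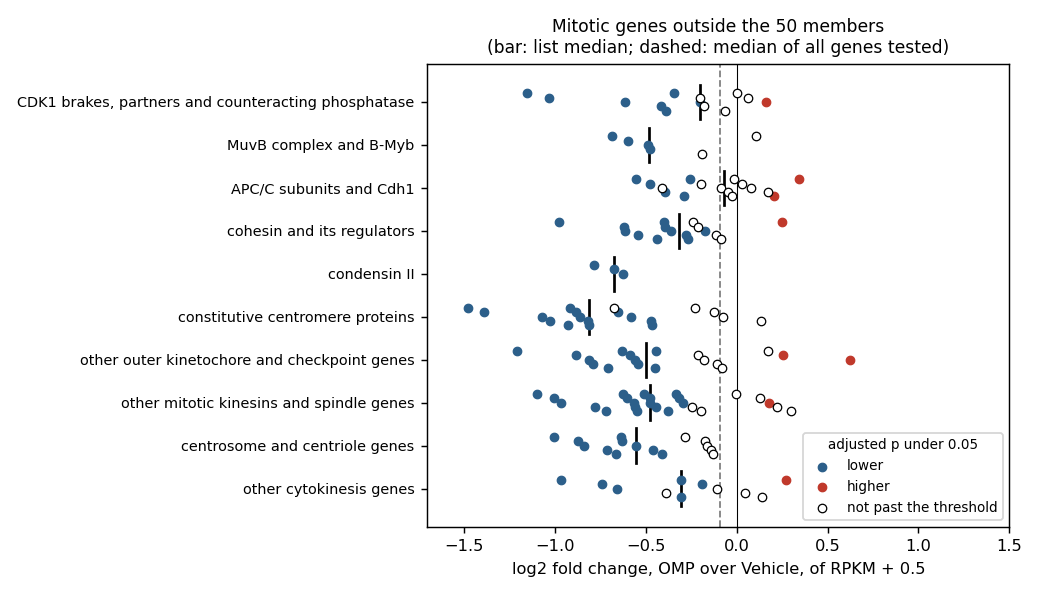
Log2 fold change, OMP over Vehicle, of 142 mitotic genes outside the members, in 10 lists; each point is a gene, coloured by its call, the bar is the list median and the dashed line the median of all genes tested. The list medians run from -0.81 for constitutive centromere proteins to -0.07 for APC/C, and 8 points are red.

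**Figure D5:**
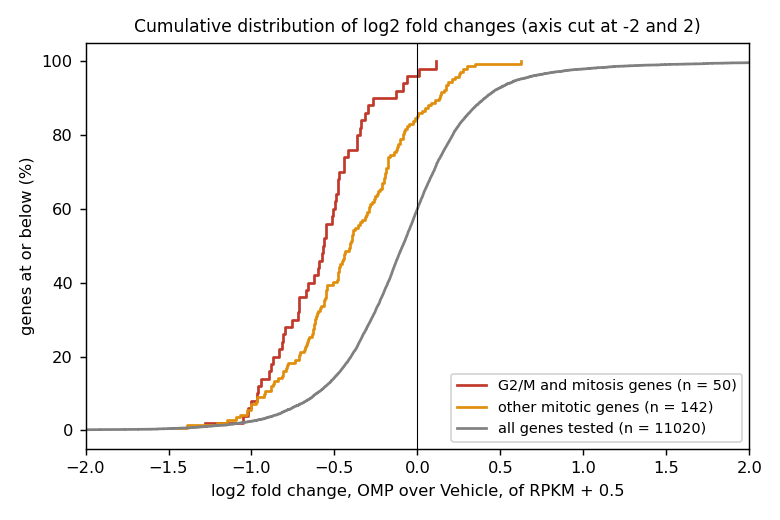
Cumulative share of genes, in percent, by log2 fold change on the log2(RPKM + 0.5) scale, for the 50 members, the 142 other mitotic genes and all 11020 genes tested. The medians are -0.56, -0.41 and -0.09, and the members' curve ends at 0.11.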

How the data were processed

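Poly(A) RNA was sequenced from TruSeq libraries, per the labels' protocols. The authors deposited RPKM in 1 column per library. Per the submitters' processing notes the tools were featureCounts 1.6.3, STAR 2.5.3a, Trimmomatic 0.36 and FastQC 0.11.5, and the builds mm10 and GRCm38. No source used here gives the strand setting, filters or annotation release. Columns were matched to libraries by title.

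RPKM steps gave whole reads for 100.0% of 19970 genes above 0, within a relative tolerance of 1e-06. Gene lengths matched a GENCODE M21 transcript for 47 of 50 members. For Cdc25c, Incenp and Kif20a the shortest length giving whole reads was taken. In a gene of 1 kb, 3 reads equalled 0.706 to 0.858 RPKM. Read numbers cover counting error only. Replicate columns were not copies of each other (chi-square over degrees of freedom 1.18 to 1.57, where counting error alone gives about 1). Such values cannot show whether replicates were separate cultures.

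Genes reaching RPKM 1 in 3 or more of the 6 libraries were fitted as log2(RPKM + 0.5) in limma 3.58.1 (R 4.3.3) with a mean-dependent prior variance and no covariate. The two-sided test was adjusted by Benjamini-Hochberg over 11020 genes at 0.05, and fold changes on this scale understate those of low genes. Folds given as "-fold lower" come from it. The procedure was run on simulated reads with few genes changed, evenly up and down. That run does not bear on the scaling of these libraries, where 43.0% of genes passed.

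Members and lists were chosen with earlier results of these data known, so lists are described by counts and medians and were given no test. Values per library are given for the highest, the most and the least changed member of each role, for members that did not pass, and for Cdk1, Ccnb1, Plk1, Aurkb, Cdc20, Top2a, Mki67 and Foxm1. Of the other lists, the gene with the smallest p-value and all that rose are named; further genes named there were chosen after their values were seen. Exons of 16 members share bases with another gene in GENCODE M21, and in 7 over 10% of them do. Those 7 are Ccna2, Cdc25c, Ube2c, Kif4, Prc1, Kif20a and Ncapg. For Cdc25c, Prc1 and Ncapg the shares were 12.7, 11.1 and 13.4%. Their partners on the other strand, Gm3550, Rccd1 and Lcorl, had 0.400, 3.14 and 4.10 RPKM in OMP cells. In Vehicle cells these partners had 0.592, 4.28 and 5.20 RPKM. Shares count exon bases of all annotated transcripts, not the length behind the RPKM. Promoters came from RefSeq (GRCm38.p6).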

Additional observations from a re-analysis of the deposited data

How the results depend on the processing

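Over pseudocounts of 1 and 0.1, no filter or one at RPKM 5, 4 scalings, a robust prior, the replicate block, voom on recovered reads, thinned reads and each library left out, 43 to 47 members fell, against 44. Members that rose numbered 1 with median-of-ratios scaling, 1 with quantile normalization and 1 with the GC and length trend removed, Plk1 each time. The median over members was -0.65 after rescaling to TPM, -0.48 with median-of-ratios, -0.48 with quantile normalization, -0.46 with the trend removed and -0.58 to -0.53 with a library left out. Minus the median of all genes it stayed between -0.51 and -0.45. Other mitotic genes that rose, 8, became 3 after rescaling to TPM, 14, 13 and 14 with median-of-ratios, quantile normalization and the trend removed, 4 to 7 with a library left out (4 without OMP replicate 1, OMP replicate 3 or Vehicle replicate 3), 3 at an adjusted p under 0.01 and 0 with a 2-fold change required. Among all genes tested 1702 rose, and 1221 after rescaling to TPM, 2366 with median-of-ratios, 2244 with quantile normalization and 2477 with the trend removed. With 2-fold required, 4 members, 10 other mitotic genes and 244 of all genes fell, by construction of that threshold. Of the members' values under processing and library alternatives 878 stayed on the same side of the threshold, 6 dropped below it, 9 newly passed and 7 changed sign. The sign changes, none of a called value, were Cdc20 after rescaling to TPM (-0.077) and without OMP replicate 3 or Vehicle replicate 2 (-0.028 to 0.048 over the libraries left out), Bub3 with median-of-ratios (0.024) and the trend removed (0.039), and Ckap2 with quantile normalization (0.011) and the trend removed (0.028). The median of all genes moved by -0.078 after rescaling to TPM, 0.083 with median-of-ratios, 0.082 with quantile normalization and 0.095 with the trend removed. The cause of the sign changes was not tested. Over the libraries left out, the difference in log2 ratio ran from -0.045 to 0.14 for Ncaph to Ncapd2 and from -0.29 to 0.041 for Cdc25c to Cdc25b. These checks on ratios were chosen after seeing the data. Same-numbered libraries are tied in the labels only by that number. Their deviations from the group mean correlated at -0.0024, 0.015 and 0.0069, and with the replicate block 44 members fell. Counting error makes up much of those deviations, so such values cannot show whether same-numbered libraries shared a culture or batch. Depth limits Pttg1 and Cdc25c, the members with the fewest reads.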
